A study of Equus caballus with 24 samples.

Results

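The voltage-gated sodium and calcium channel genes and the potassium channel genes of the horse were examined in the pituitary and in the epiphysis, the end of a long bone. Members were taken by gene symbol (KCN followed by a letter, SCN with an A or B subunit, and CACNA, CACNB, CACNG and CACNA2D), which gave 119 of the 24232 genes in the table of reads. RNA had been sequenced from female Debao ponies (DPs), a small Chinese breed, and female Mongolian horses (MHs), a taller one, with 6 horses of each breed. The 24 libraries formed 8 groups of 3: juvenile and adult pituitary of DPs (DPPJ and DPPA) and of MHs (MHPJ and MHPA), and juvenile and adult long bone of DPs (DPLBJ and DPLBA) and of MHs (MHLBJ and MHLBA). Juveniles were under and adults over 3 years of age. The labels name no animal behind a library, so p-values measure the spread between these libraries. Libraries are named here by group and replicate number, so that DPPJ1 is the first library of DPPJ.

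Voltage-gated channels open when the membrane is depolarised. Sodium channels (SCN genes, for pores and beta subunits) carry the rising phase of the action potential, calcium channels (CACNA1 pores with alpha2delta, beta and gamma subunits) let in the calcium that triggers secretion, and potassium channels (KCN genes) bring the membrane back to rest or hold it there. In the anterior pituitary, hormone cells fire spontaneous action potentials, and the calcium that enters with them drives release of hormone. In the posterior lobe, axon endings of hypothalamic neurons release vasopressin and oxytocin, and the glial cells around them take up potassium. The end of a growing bone holds chondrocytes, osteoblasts, adipocytes and marrow cells, which are not known for firing action potentials but use potassium and calcium channels to set their membrane potential and calcium entry.

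Levels are given as reads scaled by TMM-normalised library size and by gene length (TMM-normalised RPKM, called level below), one scale for all 24 libraries. Between 11433209 and 23573036 reads were counted per pituitary library and between 11616518 and 27007342 per long bone library. Channel genes took a median of 0.14% of the reads in the pituitary (range 0.0798 to 0.322%) and 0.0517% in the long bone (0.0313 to 0.0711%). Of the 119 genes, 87 to 105 had more than 3 reads in a pituitary library and 67 to 88 in a long bone library. KCNAB2, KCNJ1 and KCNV2 had at most 3 reads in every pituitary library, and 12 genes, among them KCNA1, KCNJ4 and KCNJ11, had at most 3 in every long bone library. A count of 3 or fewer was taken as not told apart from 0, a limit that covers counting error only.

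Several pituitary libraries went against their label and bear on every pituitary result. The summed level of 8 marker genes of anterior hormone cells (growth hormone, prolactin, POMC and others) lay between 17629 and 53373 in 7 libraries, but was 29.7 in DPPA1, 1.48 in MHPA1 and 0.373, 14.2 and 0.611 in MHPJ1, MHPJ2 and MHPJ3. TSHB, the beta chain of thyrotropin, had 0 reads in all 5 of these libraries. These libraries held other cells in turn. MHPJ2 had 69604 reads of PMP2, a myelin gene of Schwann cells, against at most 1486 in the other pituitary libraries. DPPA1 had 22751 reads of AVP, the vasopressin precursor, and MHPA1 the highest summed level of 6 oligodendrocyte genes, 17294.5. The 8 neuronal markers found summed to 2110 in DPPA1, 2143 in MHPJ1 and 2546 in MHPJ3, and to between 377 and 704 in the other 9. The 5 astrocyte markers summed to 3173 to 4023 in MHPJ and to at most 2584 in DPPJ, and the 6 oligodendrocyte markers to 4479 to 6291 and at most 2021. Striated muscle markers summed to 852 in MHPJ2 and to at most 18.5 in the other pituitary libraries. Since no MHPJ library held the anterior markers, breed and tissue sampled cannot be told apart in the juvenile pituitary. In bulk tissue, fewer cells of a type and less RNA per cell cannot be told apart either.

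Channel genes were more widely and more strongly expressed in the pituitary than in the long bone. A mean level of at least 1 was reached by 86 genes in the pituitary and 41 in the long bone, and a mean of at least 10 by 21 and 7. The genes with the highest mean in each tissue were partly the same. CACNA2D1, the alpha2delta subunit that brings calcium channel pores to the membrane, had a mean of 44.6 ± 14.7 (SD, n = 12) in the pituitary and 41.8 ± 30.2 in the long bone. KCNRG, a soluble regulator of potassium channel assembly, had 26.5 ± 3.74 and 21.3 ± 5.97, and varied little between libraries. Among potassium channel pores, KCNC2, a fast delayed rectifier, led in the pituitary with 26.4 ± 13.2, while KCNK9, an acid-sensitive leak channel, had the highest mean over the 12 long bone libraries, 11.5 ± 9.14. Its group means were 4.58 in DPLBJ, 7.4 in DPLBA, 22.1 in MHLBJ and 11.9 in MHLBA, and in both DP groups KCNMA1 was higher (8.8 and 9.61). KCNMA1, the pore of the large-conductance calcium-activated channel, was close in both (15.1 ± 5.61 and 10 ± 3.43). Among the calcium channel pores CACNA1D led in the pituitary (7.49 ± 3.42) and CACNA1C in the long bone (2.38 ± 1.44), both being L-type pores. Among the sodium channel pores SCN2A led in the pituitary (9.52 ± 10.3) and SCN8A in the long bone (3.28 ± 1.11).

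Tested over all 24 libraries with edgeR's quasi-likelihood test, 74 of 110 channel genes were higher and 8 lower in the pituitary (adjusted p under 0.05 and over 2-fold), and 28 were not called. The study took pituitary and long bone from 6 DPs and 6 MHs, but the labels do not link libraries to horses. The fit therefore treated the 24 libraries as independent and did not use any pairing within a horse. Over all 16131 genes tested, 38.3% were called, 21.2% higher and 17.1% lower in the pituitary, against 67.3% and 7.27% of the channel genes. The median log2 fold change of the channel genes was 2.56, and that of all genes 0.03 (2.78 and 0.24 without TMM factors). Whole classes were higher in the pituitary. All 9 tested calcium channel pores, all 4 beta subunits, the 4 tested gamma subunits, all 5 KCNA pores and all 4 KChIP subunits (calcium sensors that bind KCND pores) were higher. None of the 3 BK beta subunits, the 2 tested Kv beta subunits or the 4 KCNE subunits was higher. Most KCNA2 and KCNA6 reads of the pituitary lay in libraries low in anterior hormone markers. KCNA6 had 116, 165, 142 and 109 reads in DPPA1, MHPA1, MHPJ1 and MHPJ3, but 4 in MHPJ2. Pituitary libraries rich in these markers held 3 to 23, and DPLBJ3 held 28. KCNA2 had 87, 25, 104, 3 and 139 in DPPA1, MHPA1 and MHPJ1 to MHPJ3, and 4 to 24 in the rich libraries. KCNA5 went the other way, with 161 to 289 in the rich and 6 to 63 in the low libraries. For 12 of the 110 genes the lowest pituitary library lay above the highest long bone library, beside 4.87% of all genes, and for none was it the other way round, beside 2.65% (7.52% of all genes in either direction).

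**Figure D1:**
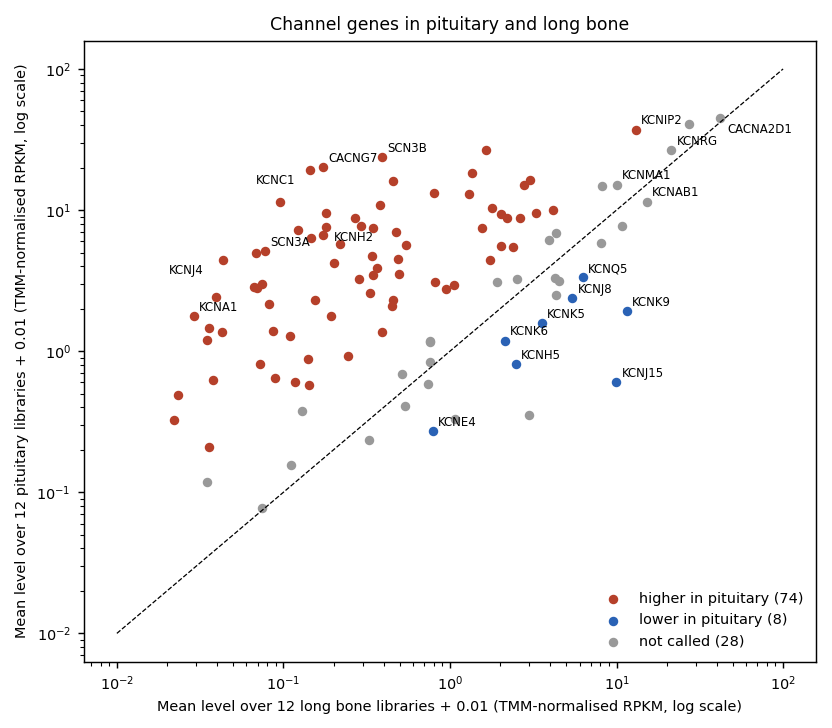
Mean level of each of the 110 tested channel genes over the 12 pituitary libraries (y axis) and the 12 long bone libraries (x axis), in TMM-normalised RPKM plus 0.01 on log scales. The 74 genes called higher in the pituitary (red) lie above the dashed line of equal levels, the 8 called lower (blue) below it, and CACNA2D1 and KCNRG close to it at the top right (grey, not called).

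Among the largest differences toward the pituitary were those of CACNG7, KCNC1, KCNJ4, SCN3A, SCN3B, KCNH2 and KCNA1. CACNG7, a gamma subunit that also escorts glutamate receptors, had a pituitary median of 18.1 (range 0.0943 to 36.9) and a long bone maximum of 0.668, which gave a log2 difference of 7.47 ± 0.81 (SE, adjusted p = 3.32e-07). Its lowest pituitary value was that of MHPJ2, and its other 11 pituitary values lay above every long bone value. KCNC1, a fast delayed rectifier of rapidly firing cells, had a pituitary median of 19.7, a single low value of 0.235 in MHPJ2 and a long bone maximum of 0.369. KCNH2, the ERG channel of the heart, had a pituitary range of 3.26 to 9.63, against at most 0.838 in the long bone (log2 fold change 5.97 ± 0.57, adjusted p = 7.29e-08). KCNJ4 and KCNA1, an inward rectifier and a low-threshold Kv pore, had at most 3 reads in every long bone library, so their mean pituitary levels of 4.44 and 1.75 were at least 23.8-fold and 14.6-fold higher than the level that 3 reads per library would give. The KCNA1 mean rested on the 5 libraries low in hormone markers, which held 40 to 154 of its reads each, while the other 7 pituitary libraries held 0 to 12, 5 of them at most 3. KCNJ4 had 443 and 254 reads in MHPJ1 and MHPJ3, 0 in MHPJ2 and 6 to 89 in the other 9.

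The 8 genes lower in the pituitary were KCNJ15, KCNK9, KCNH5, KCNE4, KCNK5, KCNK6, KCNQ5 and KCNJ8. KCNK9 had a long bone median of 9 (range 1.73 to 32.7) and a pituitary median of 1.45 (0.248 to 5.38), a log2 difference of -2.45 ± 0.45 (SE, adjusted p = 0.000113). KCNJ8, the pore of the vascular ATP-sensitive channel, had medians of 5.44 and 2.34, and the libraries of the tissues overlapped, as they did for all 8. KCNJ15, an inward rectifier, differed most (log2 fold change -4.06 ± 0.68, adjusted p = 4.45e-05), but its long bone values ran from 0.439 to 72.4, the highest in MHLBA1. Without DPPA1, MHPA1 and the MHPJ libraries, 61 of 103 channel genes were higher and 12 lower in the pituitary. The median log2 fold change of the channel genes was then 1.58 in place of 2.56, and that of all genes -0.05. The share of all genes called in this fit is not given. Without TMM factors 75 were higher and 5 lower, and KCNK5, KCNQ5 (adjusted p = 0.0694 and 0.0809) and KCNJ8 (log2 fold change -0.91) were no longer called. KCNJ8 was not called without the 5 libraries either (-0.97), nor KCNK5 with the replicate number as a block (adjusted p = 0.0921). Within single groups the direction held less well for the lower genes. Between MHPJ and MHLBJ, the log2 fold changes of KCNH5, KCNK5, KCNK6 and KCNQ5 were 1.21, 2.59, 0.92 and 1.22, that of KCNQ5 past the threshold (adjusted p = 0.0268), and between MHPA and MHLBA that of KCNK6 was 0.86.

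DPPJ and MHPJ, the juvenile pituitaries of the breeds, differed in 36 of 96 tested channel genes, of which 8 were higher and 28 lower in DPPJ. A differentially expressed gene (DEG) was called by the threshold of the study, a P below 0.05 before adjustment together with a change of more than 2-fold in edgeR's test. The share of channel genes called, 37.5%, stood beside 20.3% of all genes tested (7.6% higher and 12.7% lower). The median log2 fold change of the channel genes was -1.08 and that of all genes -0.07. With Benjamini-Hochberg adjustment over all genes 10 channel genes remained, 3 higher and 7 lower in DPPJ, where 8.73% of all genes did. An unadjusted P under 0.05 was reached by 37 of the 96 channel genes, and by 32% of all genes. The libraries of the groups did not overlap for 24 of the 96 channel genes, a smaller share than the 40.9% of all genes. With any one library left out, 18 of the 36 were called in the same direction each time, 5 higher and 13 lower.

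**Figure D2:**
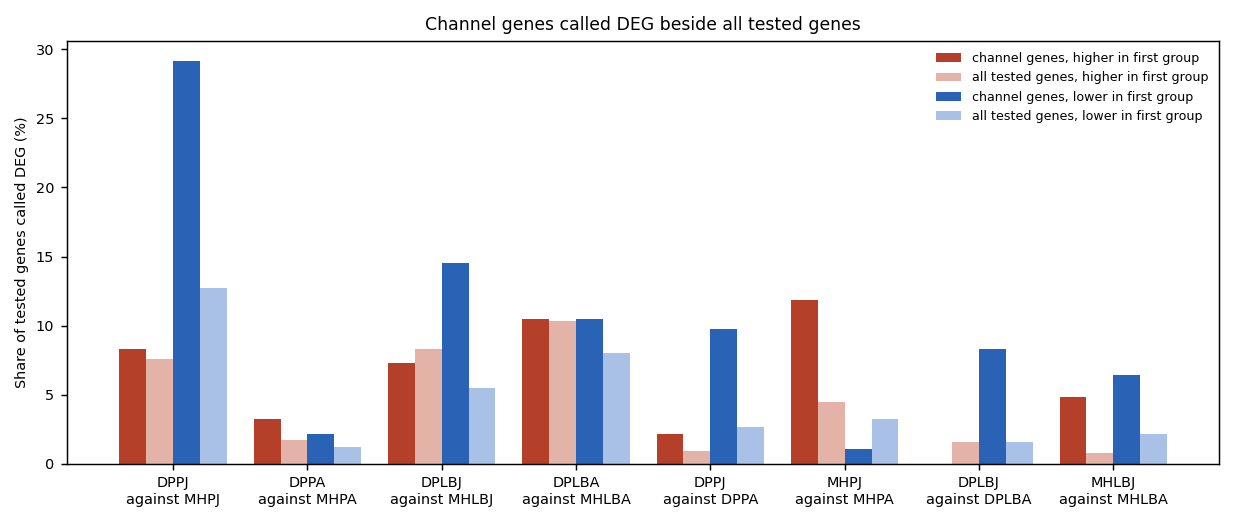
Share of tested genes called DEG in each pairwise comparison (y axis, %), for channel genes (dark bars) and for all tested genes (light bars), split by whether the first group was higher (red) or lower (blue). Channel genes lower in DPPJ than in MHPJ are the tallest bar (28 of 96 genes), and 11 of 93 were higher in MHPJ than in MHPA.

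The genes higher in DPPJ were potassium channel genes, and 3 of them passed the adjusted threshold. KCNJ5 encodes an inward rectifier opened by G proteins, through which inhibitory hormones quiet secretory cells. Its level was 6.82, 4.91 and 4.59 in DPPJ and 0.201, 0.0617 and 0.186 in MHPJ, a log2 difference of 5.04 ± 0.5 (SE, adjusted p = 0.0107). The lowest DPPJ library stood far above the highest MHPJ library. The MHPJ libraries held only 5, 1 and 4 reads of KCNJ5, so the size of the fold is uncertain. KCNA5, a delayed rectifier, had levels of 7.5, 5.46 and 6.73 in DPPJ and 0.979, 0.282 and 0.814 in MHPJ (log2 fold change 3.18 ± 0.49, adjusted p = 0.0222). KCNH6, an ERG-family pore, had levels of 2.12, 2.07 and 3.01 in DPPJ, while the MHPJ libraries held at most 2 reads. Its DPPJ mean was at least 31.4-fold higher than the level that 3 reads per MHPJ library would give (adjusted p = 0.0216). KCNK13, a leak channel, was next (5.11, 5.8 and 7.58 against 0.644, 0.792 and 2.2, adjusted p = 0.0508). The other DEGs higher in DPPJ were KCNK17, KCNN3, KCNK3 and KCNJ12. In the adult groups KCNJ5 split by library. It was 7.49 and 5.46 in DPPA2 and DPPA3 but 1.05 in DPPA1, and 12.2 and 16.3 in MHPA2 and MHPA3 but 0.051 in MHPA1. Its low values fell in the libraries with few anterior hormone markers. All 8 anterior markers tested were themselves DEGs higher in DPPJ, and their part in the channel differences was not tested.

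Among the genes lower in DPPJ, 7 passed the adjusted threshold. KCND3, the pore of a fast-inactivating A-type current, had levels of 0.228, 0.674 and 1.23 in DPPJ and 13, 7.73 and 16.6 in MHPJ (log2 fold change -4.17 ± 0.67, SE, adjusted p = 0.0236). KCNQ5, a pore of the slow M-type current, had 0.584, 2.06 and 0.875 against 9.51, 6.19 and 6.1 (-2.69 ± 0.53, adjusted p = 0.0341). In both genes all 3 MHPJ libraries lay above all 3 DPPJ libraries. KCNAB1, a cytoplasmic beta subunit that speeds inactivation of KCNA pores, had 0.408, 1.34 and 0.685 against 12.3, 8.49 and 79 (-5.4 ± 1.11, adjusted p = 0.0383), with MHPJ3 far above the others. KCNA1, an axonal pore, had 0, 0.357 and 0.133 against 5.39, 2.15 and 5.1 (-4.7 ± 1.07, adjusted p = 0.0469). KCNJ10, the inward rectifier by which glial cells buffer potassium, had 0, 0.272 and 0.349 against 6.96, 1.9 and 6.84 (-4.65 ± 1.08, adjusted p = 0.0491). KCNK6, a weak inward-rectifying leak channel, had 0.274, 0.0989 and 0.222 against 1.81, 2.78 and 1.62 (-3.4 ± 0.55, adjusted p = 0.0243). SCN4B, a sodium channel beta subunit, had 2.62, 2.84 and 2.18 against 6.85, 32.7 and 13.2 (-2.86 ± 0.64, adjusted p = 0.046), and here MHPJ2 was the highest. Of these 7 genes, KCNA1 and KCNJ10 were not called when all 12 pituitary libraries were fitted together (adjusted p = 0.173 and 0.171). The DPPJ libraries held few reads of KCNK6 (5, 2 and 5), KCNA1 (0, 12 and 5) and KCNJ10 (0, 7 and 10), so the size of these folds is uncertain.

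KCNJ11, the pore of the ATP-sensitive channel, was also called with every library left out (0.307, 0.515 and 0.533 against 1.68, 7.6 and 2.16, adjusted p = 0.0513). The remaining 20 lower genes came from most classes. They held the calcium channel genes CACNA1G, CACNA1I (T-type pores), CACNA1S, CACNA2D3 and CACNG3, the sodium channel genes SCN1A and SCN2B, and the KChIP genes KCNIP1, KCNIP2 and KCNIP4. MHPJ2 shaped many of these calls. It lay below both other MHPJ libraries for 20 of the 28 lower genes and above both for 6, and at or under the highest DPPJ value for 12. CACNG3 was 25.6 and 44.3 in MHPJ1 and MHPJ3 but 0.0383 in MHPJ2, and KCNIP1 was 67.2 and 30.5 against 0.178. Over all channel genes with a level of at least 1 in the group, 66 of 93 were more than 2-fold below both other libraries in MHPJ2. Without MHPJ2, 66 of 102 tested channel genes were DEGs (10 higher and 56 lower in DPPJ). Their median log2 fold change was then -1.42, and that of all genes 0.02. Without DPPJ1 there were 20 DEGs and without DPPJ3 22. The share of all genes called in these fits is not given, so the counts are not set against it. Neuronal markers were high in MHPJ1 and MHPJ3 and PMP2 and striated muscle markers in MHPJ2, as given above. Markers of other cells moved the same way as these genes, with 3 of 6 oligodendrocyte, 1 of 5 astrocyte, 2 of 8 neuronal, 2 of 5 striated muscle and 3 of 4 smooth muscle markers tested called lower in DPPJ and none higher. Their part was not tested.

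**Figure D3:**
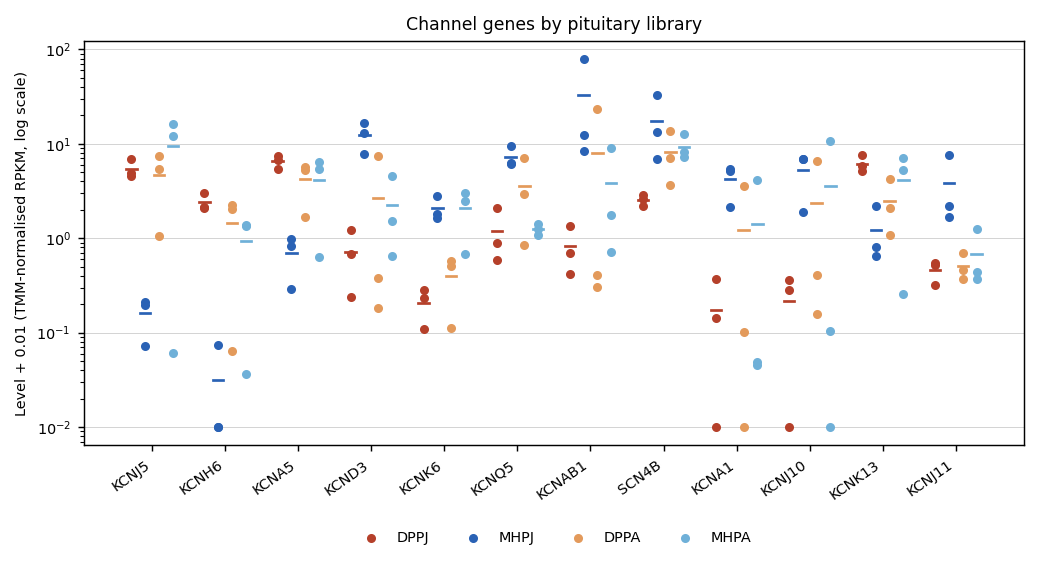
Level of the 12 named channel genes of the juvenile comparison in each pituitary library (points, TMM-normalised RPKM plus 0.01, log scale), with a bar at the mean of each group of 3. DPPJ (red) and MHPJ (dark blue) do not overlap in any of the 12 genes, while single DPPA (orange) or MHPA (light blue) points lie near the MHPJ values in KCNJ5, KCNH6, KCNA1 and KCNJ10.

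In the adult pituitary, DPPA and MHPA differed in 5 of 92 tested channel genes, 5.43% beside 2.93% of all genes (1.75% higher and 1.18% lower). Of the 5, 3 were higher and 2 lower in DPPA, and without TMM factors 1 was higher and 2 lower. CACNA1S, the L-type pore known from skeletal muscle, was lower in DPPA (0.132, 0.0989 and 0.0572 against 0.639, 2.33 and 2.32), and the log2 difference was -4.15 ± 0.66 (SE, adjusted p = 0.36). It was the one gene called with every library left out, and it was also lower in DPPJ than in MHPJ. KCNK6 was lower as well (0.101, 0.56 and 0.502 against 0.666, 2.5 and 3.02). KCNH4, CACNG3 and KCND1 were higher in DPPA, and none of these 3 was called with all 12 pituitary libraries in the fit. CACNG3 was 14.3 in DPPA1 against 0.34 and 0.774 in the other DPPA libraries, and without DPPA1 its log2 fold change was 0.98 in place of 4.2. No channel gene passed the adjusted threshold in edgeR's test, where 0.0348% of all genes did, 5 of the 92 had an unadjusted P under 0.05 (9.11% of all genes), and DESeq2 gave 6 DEGs. The groups did not overlap for 4 of the 92 channel genes, a smaller share than the 17.3% of all genes. With the replicate number as a block, since the adult pituitary libraries of equal number deviated together, 9 channel genes were DEGs, 7 higher and 2 lower in DPPA, and CACNG3 and KCND1 were no longer among them (unadjusted P = 0.0691 and 0.0701). Without DPPA1 and MHPA1, 2 were higher and 5 lower. The count was 9 without DPPA2 and 3 without DPPA3. Of the 5 adult DEGs, 4 were also DEGs in the juveniles (80% of the adult and 11.1% of the juvenile calls), CACNA1S and KCNK6 in the same and CACNG3 and KCNH4 in the opposite direction. Over all genes, 24% of the adult and 3.41% of the juvenile calls were shared, 59.4% of them in the same direction.

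**Figure D4:**
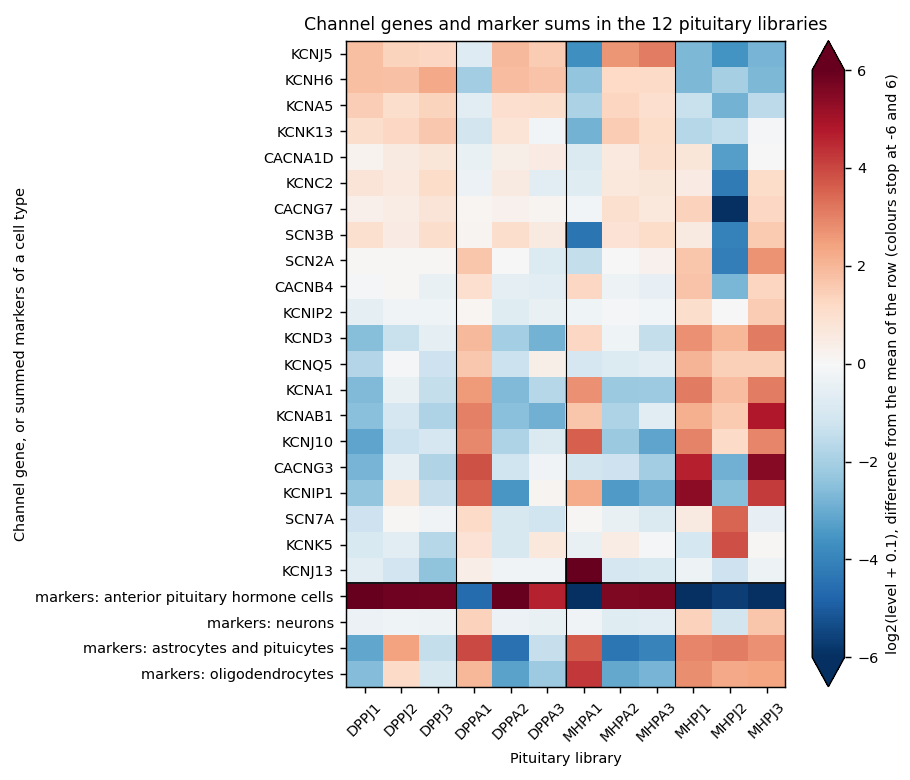
Level of 21 channel genes and, under the line, the summed level of 4 marker lists in the 12 pituitary libraries, as log2(level + 0.1) minus the mean of the row. Genes were chosen after their values were seen. DPPA1, MHPA1 and MHPJ1 to MHPJ3 are blue in the row of anterior hormone cells, KCNJ5 and KCNH6 are blue in the same libraries, and MHPJ2 is blue for CACNG7, SCN3B, SCN2A, CACNG3 and KCNIP1.

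Some channel genes were found in, or peaked in, only part of the pituitary libraries. KCNJ13, an inward rectifier known from choroid plexus and retinal epithelium, had a level of 135 (2579 reads) in MHPA1 and at most 0.608 in the other 11 pituitary libraries. KCNE1, a short subunit that slows KCNQ1, had 0 reads in DPPA1, MHPA1 and all 3 MHPJ libraries and 5 to 26 reads in the other 7 pituitary libraries. The libraries with 0 reads were those low in anterior hormone markers. In the long bone, DPLBJ2 held 43 reads of KCNE1, more than any pituitary library. KCNF1, a silent Kv modifier, had a level of 43.3 in MHPJ1 and at most 10.8 in the other pituitary libraries. These genes were picked after their values were seen.

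Between stages, DPPJ and DPPA differed in 11 of 92 channel genes, 2 higher and 9 lower in juveniles (12% of the channel genes, beside 3.56% of all genes, 0.929% higher and 2.64% lower). Without TMM factors 3 were higher and 6 lower. KCNG1, a silent subunit that modifies other Kv pores, was called with every library left out (0.711, 0.672 and 0.524 in DPPJ, 2.06, 1.35 and 2.61 in DPPA, log2 fold change -1.69 ± 0.39, SE, adjusted p = 0.419). With all 12 pituitary libraries in the fit KCNG1 and SCN3A were not called (adjusted p = 0.774 and 0.778). SCN4B and SCN3A were next, with DPPA1 holding the highest adult value of both (13.7 and 11.6). Without DPPA1 or DPPJ1 the count fell to 5 and without DPPJ3 to 2, and it was 26 without DPPA2. DPPA1 was more than 2-fold above both other DPPA libraries in 36 of 88 channel genes. MHPJ and MHPA differed in 12 of 93 channel genes, 11 of them higher in juveniles (12.9%, beside 7.74% of all genes, 4.5% higher and 3.24% lower). The MHPJ libraries are the same as those compared with DPPJ above. None of them held the anterior hormone markers that MHPA2 and MHPA3 held, so stage and tissue sampled cannot be told apart here either. KCNQ5 had levels of 9.51, 6.19 and 6.1 in MHPJ and 1.08, 1.23 and 1.41 in MHPA (log2 fold change 2.58 ± 0.3, adjusted p = 0.188), with no overlap. KCNH4, an ELK-type pore, was the other gene called with every library left out (3.09, 0.368 and 1.92 against 0.0234, 0.113 and 0.0812). CACNG3, next by P, was 82.3-fold higher in the mean but overlapped, since MHPJ2 lay under all MHPA libraries. The count ran from 5 without MHPA2 to 48 without MHPJ2, with 21 without MHPA1 and 7 without MHPA3 or MHPJ3, and DESeq2 gave 29. No channel gene passed the adjusted threshold in either stage comparison, while 15 of 92 and 12 of 93 had an unadjusted P under 0.05 (11.7% and 11.7% of all genes). The stages did not overlap for 11 of 92 channel genes in DPs (21.9% of all genes) and 7 of 93 in MHs (18% of all genes). DESeq2 gave 13 DEGs in DPs.

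The difference between the breeds was compared between stages with an interaction term. In the pituitary this term draws on the MHPJ libraries, so it cannot be told apart from the tissue sampled. In the pituitary, none of 105 channel genes passed the adjusted threshold in edgeR's test, and 34 met the DEG threshold, where 15.7% of all genes did. Of the 34, 27 had a breed difference (DP minus MH) that was lower in juveniles than in adults. KCNQ5 had the lowest P (log2 difference of differences -4.23 ± 0.97, SE, adjusted p = 0.147), followed by SCN11A, a sodium channel pore of sensory neurons (-7.06 ± 1.74, adjusted p = 0.153), whose level reached at most 0.479, in MHPJ3. DESeq2 called 14 channel genes with adjusted p under 0.05, KCNQ5 among them (adjusted p = 0.00109), and edgeR called 8 without MHPJ2. In the long bone none of 76 channel genes passed the adjusted threshold in edgeR's test, and only CACNA1B (-4.22 ± 0.96, adjusted p = 0.971) and KCNK2 (-2.39 ± 1.06, adjusted p = 0.971) met the DEG threshold, beside 4.17% of all genes. DESeq2 called 1, CACNA1B (adjusted p = 0.0317).

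In the juvenile long bone, DPLBJ and MHLBJ differed in 12 of 55 channel genes, 4 higher and 8 lower in DPLBJ, which is 21.8% beside 13.8% of all genes (8.33% higher and 5.47% lower). Without TMM factors 3 were higher and 11 lower. The median log2 fold change of the channel genes was -0.18, and that of all genes 0.05. The genes called with every library left out were all lower in DPLBJ. KCNAB1 had levels of 4.62, 2.34 and 2.2 in DPLBJ and 28.6, 15.4 and 15.7 in MHLBJ (log2 fold change -2.7 ± 0.45, SE, adjusted p = 0.136). CACNA1B, the N-type calcium channel pore known from nerve endings, had 0.246, 0.767 and 0.307 against 4.29, 3.11 and 2.09 (-2.82 ± 0.57, adjusted p = 0.136). KCNK9 had 5.22, 6.78 and 1.73 against 32.7, 8.61 and 25 (-2.25 ± 0.67, adjusted p = 0.184). In all 3 genes the groups did not overlap. CACNA2D1, KCNJ8, CACNA1C and KCNMB2 were also among the lower genes, and KCNK6, KCNC4, KCNG1 and KCNK5 higher in DPLBJ. None passed the adjusted threshold in edgeR's test, 14 of the 55 had an unadjusted P under 0.05 (17.8% of all genes), and DESeq2 gave 13 DEGs. The groups did not overlap for 14 of the 55 channel genes (21.9% of all genes). The count was 19 without DPLBJ1, 7 without DPLBJ3 and 5 without MHLBJ3.

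Cell markers of the long bone libraries also differed between DPLBJ and MHLBJ. All 5 tested chondrocyte markers were DEGs higher in DPLBJ, though DPLBJ1 shared this in COMP alone (509 reads against 43 to 145). Its reads of COL2A1 (76), ACAN (26), COL9A1 (0) and SOX9 (7) lay within or under the MHLBJ ranges. Those ranges were 24 to 141, 14 to 81, 0 to 33 and 9 to 21. The summed level of 6 markers was 20.2 (in DPLBJ1) to 4027 against 3.12 to 5.68 in MHLBJ. All 5 adipocyte markers tested were lower in DPLBJ (2337 to 5979 against 9305 to 11834), as were 5 of 6 striated muscle markers (2.87 to 6.29 against 12.8 to 391). Markers of marrow and bone cells were higher in DPLBJ: 3 of 3 erythroid genes tested (0.379 to 835 against 0.508 to 1.53), 2 of 2 neutrophil genes (3.27 to 2299 against 0.14 to 29.6), 3 of 5 osteoblast genes (3000 to 18194 against 1951 to 6567) and 1 of 3 B cell genes. The sums of these last lists overlapped between the groups, with a wide spread in DPLBJ. The part of these cells in the channel results was not tested.

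In the adult long bone, DPLBA and MHLBA differed in 14 of 67 channel genes, 7 in each direction, which is 20.9% beside 18.3% of all genes (10.3% higher and 8.03% lower). Of these, 6 were called with every library left out. KCNC4, a fast delayed rectifier, had levels of 6.53, 5.04 and 8.99 in DPLBA and 1.38, 2.5 and 2.36 in MHLBA (log2 fold change 1.66 ± 0.4, SE, adjusted p = 0.0713). The silent subunits KCNS1 (0.74, 0.53 and 0.816 against 0.0855, 0.185 and 0.037) and KCNG1 (0.468, 1.89 and 2.96 against 0.0542, 0.305 and 0.141) and the KChIP gene KCNIP3 (1.57, 3.17 and 2.57 against 0.58, 0.44 and 0.627) were higher in DPLBA too. Each of these 4 genes separated the groups. The low side rested on few reads, with 1, 13 and 3 of KCNG1 and 4, 7 and 5 of KCNIP3 in MHLBA, so the size of these folds is uncertain. KCNMB2, a beta subunit of the large-conductance channel, was lower in DPLBA (4.61, 7.6 and 1.38 against 30.5, 13.5 and 19.4, log2 fold change -2.3 ± 0.62, adjusted p = 0.0879). SCN9A, a sodium channel pore of pain-sensing neurons, was also lower (0.0395, 0.0486 and 0.018 against 4.45, 0.16 and 0.166). Most of its fold came from MHLBA1, without which its log2 fold change was -2.19 in place of -5.57. MHLBA1 was more than 2-fold above both other MHLBA libraries in 20 of 50 channel genes, among them CACNA2D3 (14.4 against 0.233 and 0.296) and KCNJ15 (72.4 against 1.68 and 2.56). CACNA2D3 was no DEG without it. Its summed adipocyte markers, 1444, were the lowest of all long bone libraries, and the part of this was not tested. Cell markers differed between the breeds in adults too. Higher in DPLBA were 4 of 5 osteoblast genes (summed level 5288 to 9932 against 767 to 2896), 2 of 2 neutrophil genes (334 to 496 against 0.268 to 22.2), 3 of 4 B cell genes (5.66 to 7.43 against 1.53 to 1.96), 2 of 5 chondrocyte genes and the 1 erythroid gene tested. Lower were 4 of 4 striated muscle genes and 4 of 7 neuronal genes, of which 1 was higher. Their part in the channel results was not tested. No channel gene passed the adjusted threshold in edgeR's test, where 2.24% of all genes did, 14 of the 67 had an unadjusted P under 0.05 (24.2% of all genes), and DESeq2 gave 18 DEGs. The groups did not overlap for 11 of the 67 channel genes, a smaller share than the 29.6% of all genes.

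**Figure D5:**
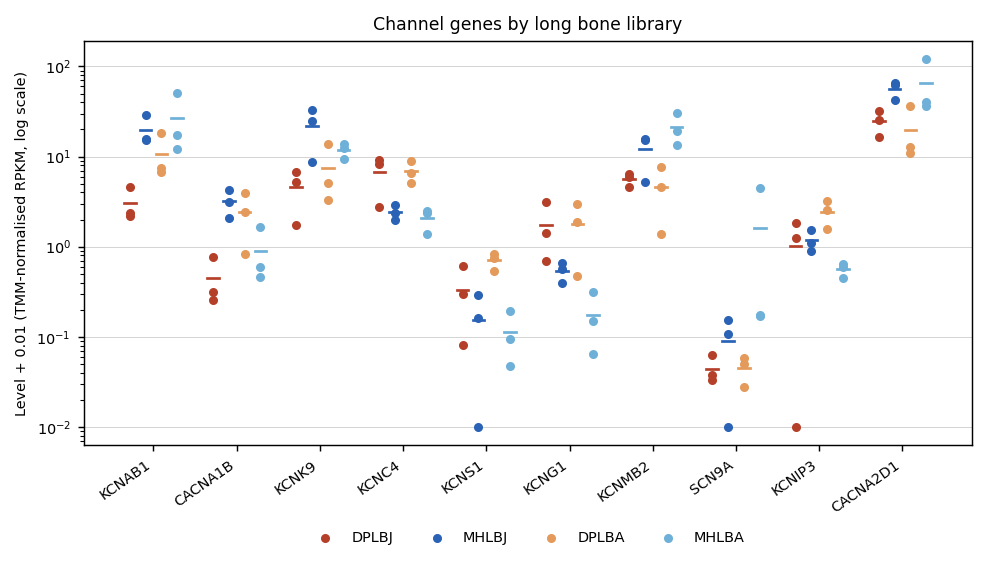
Level of channel genes in each long bone library (points, TMM-normalised RPKM plus 0.01, log scale), with a bar at the mean of each group of 3, for the named genes of the breed comparisons and CACNA2D1. KCNAB1, CACNA1B and KCNK9 separate DPLBJ (red) from MHLBJ (dark blue), KCNC4, KCNS1, KCNG1 and KCNIP3 separate DPLBA (orange) from MHLBA (light blue), and the single high SCN9A point is MHLBA1 at 4.45.

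The juvenile and adult breed comparisons of the long bone share no library, and 6 channel genes were DEGs in both, all in the same direction (50% of the juvenile and 42.9% of the adult calls). Over all genes, 49.6% of the juvenile and 36.5% of the adult calls were shared, 99.3% of them in the same direction, so the share and the common direction of the channel genes stood near those of all genes. KCNC4, KCNG1 and KCNK6 were higher in DPs at both stages, and CACNA2D1, KCNJ8 and KCNMB2 lower. KCNC4, KCNG1 and KCNMB2 were called in adults with every library left out but not in juveniles, and the other 3 lost the call at both stages when some single library was left out. CACNA2D1 had levels of 31.9, 25.7 and 16.3 in DPLBJ, 42.2, 66.1 and 62.3 in MHLBJ, 12.7, 36 and 10.9 in DPLBA and 120, 40.1 and 36.8 in MHLBA. The groups did not overlap at either stage, though in adults the highest DPLBA and the lowest MHLBA libraries lay close together. KCNJ8 had 3.66, 2.4 and 2.54 against 5.2, 5.69 and 9.4 in juveniles and 2.72, 6.56 and 1.77 against 7.78, 7.5 and 9.66 in adults.

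Between stages the long bone held few channel DEGs. DPLBJ and DPLBA differed in 5 of 60 channel genes, all lower in juveniles (8.33%, beside 3.14% of all genes, 1.58% higher and 1.56% lower): CACNA1B, KCNQ1, KCNAB1, CACNB4 and KCNK2, of which the last pair was not called with all 12 long bone libraries in the fit. CACNA1B was the one called with every library left out (0.246, 0.767 and 0.307 in DPLBJ, 2.41, 0.821 and 3.97 in DPLBA, log2 fold change -2.4 ± 0.71, SE, adjusted p = 0.988). KCNQ1, a pore of slow repolarisation and of epithelial transport, had a level of 30.4 in DPLBA2 and 1.14 and 0.477 in the other DPLBA libraries, and it was not called without DPLBA2. The count was 3 without DPLBA2 and 3 without DPLBA3. MHLBJ and MHLBA differed in 7 of 62, 3 higher and 4 lower in juveniles (11.3%, beside 2.91% of all genes, 0.763% higher and 2.14% lower). CACNA1B was again the one called with every library left out, but higher in juveniles (4.29, 3.11 and 2.09 in MHLBJ, 0.451, 0.586 and 1.64 in MHLBA, log2 fold change 1.83 ± 0.55, adjusted p = 0.998). KCNK5, a leak channel opened by alkaline pH, was lower (0.456, 0.506 and 1.13 against 4.24, 1.14 and 2.46) and CACNA2D4 higher in MHLBJ (0.446, 0.495 and 0.452 against 0.177, 0.22 and 0.131), and neither was called with all 12 long bone libraries in the fit. This count ran from 2 without MHLBJ1 or MHLBJ2 to 11 without MHLBA2, with 4 without MHLBJ3. No channel gene passed the adjusted threshold in edgeR's test of either comparison, 5 of 60 and 7 of 62 had an unadjusted P under 0.05 (4.31% and 4.27% of all genes), and DESeq2 gave 4 and 6 DEGs. The stages did not overlap for 8 of 60 channel genes in DPs (9.09% of all genes) and 9 of 62 in MHs (8.48% of all genes).

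Of 37 partner genes that are no channel pores or subunits of the families above (HCN pacemaker channels, ankyrins, FGF homologous factors, LGI and STAC proteins and others), 34 were found. In the juvenile pituitary 1 of 31 tested was higher in DPPJ and 9 were lower, beside 7.6% and 12.7% of all genes. LRRC52, an auxiliary subunit of potassium channels, was the higher one (mean level 0.65 against 0.0307), and LGI3, LGI2, NFASC and FGF13 led the lower ones, with LGI3 passing the adjusted threshold (3.53 against 17.1, log2 fold change -2.32 ± 0.42, SE, adjusted p = 0.0287). FGF13, which binds sodium channel pores inside the cell, had a mean of 5.43 against 43.9. In the adult pituitary none of 30 was called (2.93% of all genes). In the long bone 1 of 21 was higher and 4 were lower in DPLBJ (8.33% and 5.47% of all genes), with STAC2 and STAC first, and 3 of 26 were higher and 4 lower in DPLBA (10.3% and 8.03%), with LGI2 first. STAC2, which supports calcium channels at the membrane, was lower in DPLBJ (2.77 against 7.61) and higher in DPLBA (15.7 against 4.78) than in MHs. Between stages, 2 of 31 were called in the DP pituitary (3.56% of all genes), 3 of 30, all higher in juveniles, in the MH pituitary (7.74%), 1 of 22 in the DP long bone (3.14%) and 1 of 23 in the MH long bone (2.91%).

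All 119 symbols matched a RefSeq gene (of an assembly other than that of the files, used for names and gene order alone), and 30 of the genes lay in 13 clusters of neighbours with at most 1 protein-coding gene between them. KCNA5 was higher in DPPJ than in MHPJ, while KCNA6 and KCNA1, beside it, were lower. KCNJ5 was higher in DPPJ, and its neighbour KCNJ1 was not told apart from 0 in the pituitary. SCN4B and SCN2B, also neighbours, were both lower in DPPJ. The sodium channel pores are close paralogs, and reads that map to more than 1 of them could be split by the counting, so single values of these genes are uncertain. KCNAB2, a Kv beta subunit usually abundant in brain, had 227 reads in DPLBA2 and 0 in the other 23 libraries.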

How the data were processed

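Female Debao ponies and Mongolian horses were sampled for pituitary and long bone epiphysis. Total RNA was depleted of ribosomal RNA and made into directional libraries, paired-end per the labels, and the genome build was EquCab3.0. The submitters' processing notes name TopHat2, and the methods of the study name Salmon for transcript levels in TPM, a unit not used here. The deposited tables hold read counts per gene and, separately, RPKM computed by the authors. Which program gave the deposited counts, and its strand setting, are not given in the sources used here, so overlapping genes on opposite strands cannot be told apart. Read counts were used for all tests. RPKM recomputed from them differed by over 2% for 883 genes in DPLBA2 and for none in the other libraries, so levels were computed from the reads.

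Each pair of groups was fitted with edgeR 4.0.16 (R 4.3.3, limma 3.58.1; TMM, filterByExpr with a minimum count of 10, quasi-likelihood F test), with p-values adjusted by Benjamini-Hochberg over all genes tested. DEGs follow the threshold of the study (unadjusted P under 0.05, fold change over 2). Tissues were compared over all 24 libraries, and the breed by stage interaction within each tissue. Only the fit of DPPJ against MHPJ was also run on simulated counts, with 200 changed genes, and the outcome is not given here. DESeq2 1.42.0 and the other settings of the closing section were alternatives. Libraries of equal number in DPPA and MHPA deviated together (correlations of 0.638, 0.533 and 0.371 between their deviations from the group means). This was not so for every pair in the other comparisons. The block is therefore given beside the adult pituitary result, and elsewhere only where it changed a call or a count. DPPA1 and MHPA1 were both low in anterior hormone markers, and equal numbers in different breeds do not show that animals were paired. Pairing comes from the numbers in the sample titles.

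Named genes were DEGs called with each library left out in turn (at most 12 by P, filled to 3), the 8 largest tissue differences in each direction, the highest member of each class, and the 2 lowest P of each interaction. Members and lists were chosen with earlier results of these data known. The floor of 3 reads covers counting error only, while the SDs and standard errors hold the spread between libraries. Some genes are not reported here.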

Additional observations from a re-analysis of the deposited data

How the results depend on the processing

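The direction and call of the tissue comparison held in most settings: the count of 82 channel genes ran from 79 to 84 with any library left out and was 73 without the 5 libraries low in hormone genes, a setting chosen after seeing the data. Within single breeds and stages fewer libraries entered, and 47 (DPPJ and DPLBJ), 49 (DPPA and DPLBA), 32 (MHPJ and MHLBJ) and 22 (MHPA and MHLBA) were called. The log2 fold changes of KCNH5 (1.21), KCNK5 (2.59), KCNK6 (0.92) and KCNQ5 (1.22) turned in MHPJ and MHLBJ, and that of KCNK6 (0.86) in MHPA and MHLBA; the cause was not tested. With adjusted p under 0.05, 10 channel genes remained in DPPJ against MHPJ and 0 in the other 7 pairwise comparisons by edgeR. For the refits, here and above, the share of all genes called is not given. Their counts show only how far the calls depend on the setting. Leaving out each library once, DEG counts ran from 20 to 66 (DPPJ against MHPJ), 3 to 9 (DPPA against MHPA), 5 to 19 (DPLBJ against MHLBJ), 10 to 17 (DPLBA against MHLBA), 2 to 26 (DPPJ against DPPA), 5 to 48 (MHPJ against MHPA), 3 to 6 (DPLBJ against DPLBA) and 2 to 11 (MHLBJ against MHLBA), and the interaction counts from 0 to 8 in the pituitary and 0 to 0 in the long bone. With the replicate number as a block, 20 (DPPJ against MHPJ), 9 (DPPA against MHPA), 3 (DPPJ against DPPA) and 2 (MHLBJ against MHLBA) were DEGs, and the other counts stayed within 1.5 times. DPPA against MHPA gave 3 without TMM factors and 8 with edgeR's exact test. DPLBA against MHLBA gave 22 without the low-count filter. MHPJ against MHPA gave 29 with DESeq2, 24 without the low-count filter, 23 with the exact test and 29 with all 12 pituitary libraries in the fit. That last fit gave 6 in DPPJ against DPPA, and the long bone one 4 in MHLBJ against MHLBA. DESeq2 called 14 interactions in the pituitary and 1 in the long bone. Genes with few reads, above all in the long bone, where 52 to 64 channel genes were not tested, could not be compared at this depth.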
